A study of Saccharomyces cerevisiae with 6 samples.

Results

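Expression of 9 genes of fatty acid and phospholipid synthesis was followed in galactose-evolved yeast grown on glucose. The genes were FAS1, FAS2, ACC1, OLE1, ELO1, INO1, OPI3, CHO1 and CHO2, taken by symbol from the array's gene annotation out of 5449 genes tested. Each is represented by 1 probe set, and all 9 were measured on every array. The cultures were Saccharomyces cerevisiae of the CEN.PK113-7D background. The strains 62A (1 array), 62B (2 arrays) and 62C (1 array) carry the label of adaptive evolution on galactose, while the reference (2 arrays) is labelled wild type. All were aerobic batch cultures in fermenters on a minimal medium with glucose, kept at pH 5.0, and cells were taken in mid exponential growth. Each evolved name stands for 1 strain, the mutations of these strains are not given in the labels, and nothing says that paired arrays came from separate cultures. A p-value below therefore measures the spread between these arrays or strains, which may be technical.

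Fatty acids in yeast are built from acetyl-CoA. Acetyl-CoA carboxylase (ACC1) makes malonyl-CoA, and the fatty acid synthase, a complex of the beta subunit FAS1 and the alpha subunit FAS2, extends it into saturated acyl chains. ELO1 elongates medium-chain acyl groups, and the OLE1 desaturase introduces the double bond of the unsaturated chains that keep membranes fluid. Phospholipids then arise from phosphatidate. CHO1 makes phosphatidylserine, and CHO2 and OPI3 methylate phosphatidylethanolamine in sequence to give phosphatidylcholine. INO1, the inositol-3-phosphate synthase, supplies the inositol of phosphatidylinositol. Many of these genes are activated by the Ino2-Ino4 dimer and held down by Opi1 when inositol is plentiful, and INO1 is the best-known target of this circuit.

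Values are log2 expression on Affymetrix Yeast Genome arrays, where 1 unit is a doubling, and the level of one probe set is not set against that of another. Signal from probe sets of the other yeast species on the array put the background at 5.06 (their 95th percentile), well below every value of the 9 genes. Array medians over all genes lay between 7.30 and 7.34. The SD over genes of the log2 difference was 0.0695 for the 62B pair and 0.0956 for the reference arrays, against 0.249 to 0.366 between an evolved and a reference array. The mean log2 excess of 3' over 5' probe sets of the 8 control genes, which tracks RNA integrity, was 1.89 in 62A, 2.01 and 2.05 in 62B, 1.73 in 62C, and 1.90 and 1.84 in the reference. The transcripts of mating type a, the type of CEN.PK113-7D, were present on all arrays, between 8.04 and 11.28, while the alpha-cell genes MF(ALPHA)1 and MF(ALPHA)2 lay between 5.04 and 5.53 and STE3 between 5.08 and 5.96. Levels were not uniform, as MFA1, MFA2, STE2, BAR1 and also STE3 were lowest on both 62B arrays. MFA1 was at 8.36 and 8.48 in 62B, against 9.92 to 10.46 on the other arrays. Array values are relative amounts in total RNA, so a change in all cells and a larger change in some of them cannot be told apart.

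With the 3 evolved strains taken as 3 samples against the 2 reference arrays, 0 of the 9 genes passed the threshold, an adjusted p of 0.05 in limma over all genes tested. Among all genes 1.96% rose and 2.79% fell by that rule. At an unadjusted p under 0.05 there were 3 of the 9 genes, FAS1, FAS2 and CHO2, all with lower levels in the evolved strains, and 1555 of all genes. The median log2 change was −0.07 over the 9 genes and −0.03 over all genes.

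**Figure D1:**
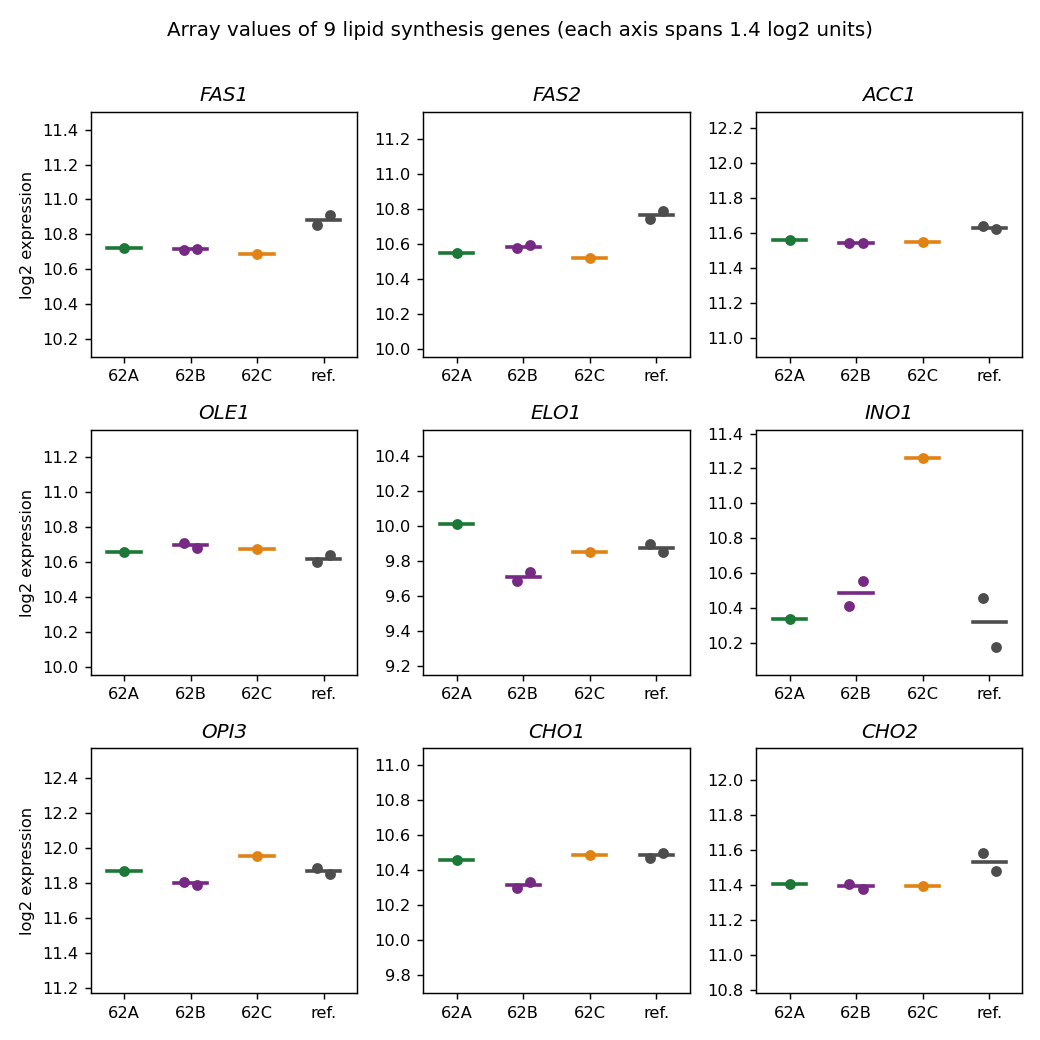
Log2 expression of each gene on every array, with 1 point per array and a line at the strain mean; 62A and 62C have 1 array each, 62B and the reference (ref.) have 2. FAS1 and FAS2 are lower on all 4 evolved arrays than on both reference arrays, while INO1 stands at 11.26 in 62C against 10.18 to 10.55 elsewhere.

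FAS1 and FAS2, which encode both subunits of the fatty acid synthase, were lower in each evolved strain by a small and similar amount. FAS1 (YKL182W) was at 10.72 in 62A, 10.71 and 10.72 in 62B and 10.69 in 62C, against 10.85 and 10.91 in the reference. FAS2 (YPL231W) was at 10.55 in 62A, 10.58 and 10.59 in 62B and 10.52 in 62C, against 10.74 and 10.79. All 4 evolved arrays lay below both reference arrays for either gene. How many of all genes separate in this way was not counted, which also holds for the genes below. The 3' excess of the further ACT1 pair also separated the evolved arrays from both reference arrays. The part of RNA quality in such separations, here and for the genes below, was not tested. Each strain was then tested alone, in a model of the 6 arrays that gives each strain its own term and takes the spread from the paired arrays of 62B and of the reference. FAS2 fell in 62A to 0.859 of the reference level (log2 change −0.22 ± 0.06, SE, limma adjusted p = 0.0231), in 62B to 0.882 (−0.18 ± 0.05, adjusted p = 0.0131) and in 62C to 0.844 (−0.24 ± 0.06, adjusted p = 0.00927). FAS1 fell in 62B to 0.890 (−0.17 ± 0.05, limma adjusted p = 0.0199) and in 62C to 0.874 (−0.19 ± 0.06, adjusted p = 0.0279). In 62A its change of −0.16 ± 0.06 did not pass (adjusted p = 0.0761). With the strains as 3 samples the changes were −0.17 ± 0.05 for FAS1 (limma adjusted p = 0.0936) and −0.22 ± 0.05 for FAS2 (adjusted p = 0.0665), both short of the threshold. These comparisons all share the reference arrays and are not independent of one another.

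The evolved strains could not be separated from each other in the synthase genes. The moderated F test for a difference among 62A, 62B and 62C gave limma adjusted p = 0.921 for FAS1 and 0.688 for FAS2. The interval of the difference between 62B and 62A ran from −0.14 to 0.13 for FAS1 and from −0.09 to 0.17 for FAS2 (95%). Across the 6 arrays the profiles of both subunit genes, each centred on its own mean, differed by a root mean square of 0.0239 (Pearson r = 0.98). Of all the other genes, 28 were closer to FAS1 than FAS2 was, since its rank was 29. The arrays share strains and a normalization, so this is a description only. The calls in 62A and 62C rest on 1 array each, and the FAS2 call in 62A and the FAS1 calls in 62B and 62C were lost without either 62B array, which leaves 1 pair to estimate the spread; so was that of FAS2 in 62B.

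ACC1 (YNR016C), the carboxylase that feeds the synthase, showed the narrowest spread within strains. It was at 11.56 in 62A, 11.54 on both 62B arrays and 11.55 in 62C, against 11.64 and 11.62 in the reference. All evolved arrays were below both reference arrays, but the difference was small. Its change was −0.08 ± 0.05 with the strains as samples (95% interval −0.19 to 0.03, limma adjusted p = 0.300), and no single strain passed (adjusted p from 0.163 to 0.400).

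OLE1 (YGL055W), the desaturase gene, was at 10.66 in 62A, 10.71 and 10.68 in 62B and 10.67 in 62C, against 10.60 and 10.64 in the reference. Here the evolved arrays lay above both reference arrays, by less than 0.1 in the mean of each strain. The change was 0.06 ± 0.05 with the strains as samples (95% interval −0.06 to 0.17, limma adjusted p = 0.477). No strain passed alone, with changes of 0.04, 0.08 and 0.06 in 62A, 62B and 62C. After quantile normalization the change in 62B was 0.16 and passed (limma adjusted p = 0.0122).

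ELO1 (YJL196C), the elongase gene, differed among the evolved strains. Its level was 10.01 in 62A, 9.69 and 9.74 in 62B and 9.85 in 62C, with 9.90 and 9.85 in the reference. The reference thus lay between 62A above and 62B below, and overlapped with 62C. ELO1 fell in 62B to 0.893 of the reference level (−0.16 ± 0.05, limma adjusted p = 0.0241). In 62A the change was 0.14 ± 0.06 (adjusted p = 0.125) and in 62C −0.02 ± 0.06 (adjusted p = 0.811). After quantile normalization the change in 62A passed (0.18, limma adjusted p = 0.0416). Set directly against 62A, 62B was lower by a log2 difference of −0.30 ± 0.06 (limma adjusted p = 0.00904), and the F test among the evolved strains passed (adjusted p = 0.0123). In the order 62A, reference, 62C and 62B no neighbouring pair differed past the threshold. The 62B calls of ELO1 were lost without either 62B array. The 3' excess of the control genes was highest in 62B, where ELO1 was lowest. It was lowest in 62C, where ELO1 lay between its levels in the other evolved strains. The part of RNA quality in the ELO1 differences was not tested.

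INO1 (YJL153C) had the widest range of the 9 genes. It was at 10.34 in 62A, 10.41 and 10.55 in 62B, and 10.46 and 10.18 in the reference, but at 11.26 in 62C. The single 62C array stood above all others, while 62A and 62B overlapped with the reference. INO1 was also the most variable of the 9 genes within strains, with an SD of 0.0992 in 62B and 0.196 in the reference (n = 2 arrays each).

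Against the reference INO1 rose 1.92-fold in 62C (log2 change 0.94 ± 0.11, limma adjusted p = 0.000157), the only rise among the 9 genes in any strain with the values as deposited. The change was 0.02 ± 0.11 in 62A (adjusted p = 0.918) and 0.17 ± 0.09 in 62B (adjusted p = 0.153). In 62B it passed after quantile normalization (0.23, limma adjusted p = 0.0312) and without the first reference array (0.30, adjusted p = 0.00274). Counted from the largest rise downward, INO1 was at rank 94 of the 5449 genes in 62C, and the rank given next is counted in the same way. The difference between 62C and 62A was 0.92 ± 0.12 (limma adjusted p = 0.0114), which ranked INO1 at 3 among all genes, with 1 array on either side and the error taken from the 62B and reference pairs. The difference between 62B and 62C was −0.77 ± 0.11 (adjusted p = 0.000630). The F test among the evolved strains gave adjusted p = 0.000907. Leaving out either reference array moved the rise in 62C to 0.80 or 1.08, and it passed in all 11 alternatives that could be run (adjusted p up to 0.000414). With 1 array of 62C its own spread is unknown. The mean 3' excess of the 8 control genes was lowest in 62C, while that of the further ACT1 pair was lower in the reference. The part of RNA quality in this result was not tested.

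CHO1 (YER026C), the phosphatidylserine synthase gene, was lowest in 62B. It was at 10.46 in 62A, 10.30 and 10.33 in 62B and 10.49 in 62C, against 10.47 and 10.50 in the reference. CHO1 fell in 62B to 0.888 of the reference level (−0.17 ± 0.05, limma adjusted p = 0.0167), and 62B was lower than 62C by the same amount (−0.17 ± 0.06, adjusted p = 0.0460). The changes in 62A and 62C were −0.03 ± 0.06 and 0.00 ± 0.06. The overall test among the evolved strains did not pass (adjusted p = 0.0734), so CHO1 is not shown to differ among all of them. The difference between 62B and 62A did not pass (−0.14 ± 0.06, adjusted p = 0.128), and that between 62B and 62C was lost without either 62B array. The fall in 62B did not pass after quantile normalization or without either 62B array.

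The methyltransferase genes that act after CHO1 did not pass in any strain. CHO2 (YGR157W) was at 11.40 in 62A, 11.41 and 11.38 in 62B and 11.40 in 62C, against 11.59 and 11.48 in the reference. The evolved arrays were close together and below both reference arrays, which themselves differed by 0.11. Its change was −0.13 ± 0.05 with the strains as samples (95% interval −0.27 to 0.00, limma adjusted p = 0.175), and the adjusted p in single strains was 0.180, 0.0625 and 0.128. In 62B the call was gained after quantile normalization, with an intensity trend, with the replicate number as a block and without the second reference array. It was gained in 62C after quantile normalization and without that array, and in 62A without that array. OPI3 (YJR073C), the final methyltransferase, was at 11.87 in 62A, 11.80 and 11.79 in 62B and 11.95 in 62C, against 11.88 and 11.85. The change with the strains as samples was 0.00 ± 0.06 (95% interval −0.15 to 0.16, adjusted p = 0.970). Levels of OPI3 were lowest in 62B and highest in 62C, but neither the F test (adjusted p = 0.148) nor a strain against the reference passed.

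Counted by strain, 1 of the 9 genes fell and 0 rose in 62A (FAS2), where 14.9% of all genes fell and 10.0% rose. In 62B 4 fell (FAS1, FAS2, ELO1 and CHO1) and 0 rose, against 21.3% and 20.1% of all genes. In 62C 2 fell (FAS1 and FAS2) and 1 rose (INO1), against 23.3% and 14.7%. At an unadjusted p under 0.05 the numbers were 3, 5 and 3 of 9 in 62A, 62B and 62C. By the same rule 2089, 2728 and 2585 of the 5449 genes tested passed in these strains. The 4 in 62B are 44.4% of a set of only 9 genes, whose difference from the share over all genes was not tested, and 62B has smaller errors because it has 2 arrays. Between evolved strains, ELO1 alone was lower in 62B than in 62A (background 6.77% lower, 9.38% higher), CHO1 and INO1 were lower in 62B than in 62C (14.1% lower, 19.5% higher), and INO1 alone was higher in 62C than in 62A (1.91% higher, 0.514% lower). Of the 9 genes 2, ELO1 and INO1, passed the F test among the evolved strains, against 28.8% of all genes. In size, every change of the 9 genes in a single strain against the reference, other than that of INO1 in 62C, was under 0.25 on the log2 scale. With the strains as samples the change of INO1 was 0.37 ± 0.29 and did not pass (limma adjusted p = 0.439).

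**Figure D2:**
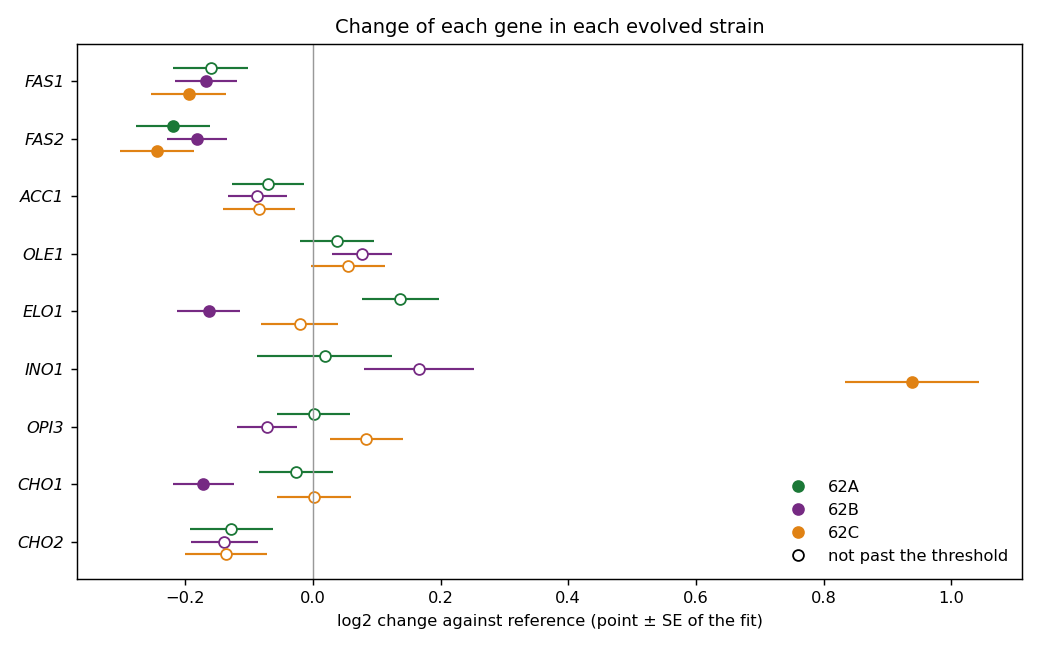
Log2 change of each gene against the reference in 62A, 62B and 62C, with the SE of the limma fit as bars; filled points passed the adjusted threshold of 0.05. FAS1 and FAS2 lie between −0.24 and −0.16 in all strains, and INO1 in 62C lies at 0.94.

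For the 3 genes with the widest range over strains, INO1, ELO1 and FAS2, the nearest genes in the whole table were found by the root mean square difference of array values centred on their mean (6 arrays). Nearest to INO1 were COX14 (0.157, Pearson r = 0.95), MTH1 (0.159) and SDH2 (0.166). None of these follows INO1 tightly, since the spread of INO1 itself was 0.344 on this scale. The nearest to ELO1 were PAU9 (0.0333), YGL159W (0.0364) and YAL063C-A (0.0440), of which YAL063C-A lay close to the background. FAS2 had far closer neighbours, KAP104 (0.0106), CCT7 (0.0113) and SEC26 (0.0127), each with r = 0.99.

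Of 13 regulator genes, 62B had 3 higher and 1 lower, 62C had 1 higher and 2 lower, and 0 passed in 62A, with MGA2 and UME6 in 62B changing most. Over all genes the shares were 20.1% higher and 21.3% lower in 62B, and 14.7% and 23.3% in 62C. INO2 and INO4 encode the partners of the activating dimer. INO2 (YDR123C) was at 5.94 in 62A, 5.89 and 5.98 in 62B and 5.85 in 62C, against 6.01 and 6.18 in the reference, and it fell in 62C (−0.25 ± 0.08, limma adjusted p = 0.0350). INO4 (YOL108C) was at 7.29, at 7.27 and 7.19, and at 7.30 in these strains, against 7.11 on both reference arrays, and it rose in 62C (0.19 ± 0.06, adjusted p = 0.0375). In 62A and 62B, where INO1 did not pass, the changes of INO2 (−0.16 and −0.15) and INO4 (0.18 and 0.12) had the same signs as in 62C and did not pass. After quantile normalization or median centring, INO2 passed in 62B and INO4 in 62A. INO2 also passed in 62B with the replicate number as a block. Without the first reference array, INO2 passed in 62A and 62B and INO4 in 62A. INO4 in 62B passed in no alternative. Both calls in 62C were lost in some alternatives, among them leaving out either 62B array. OPI1 (YHL020C), the repressor gene, was between 8.53 and 8.69 on all arrays, and its changes of 0.00, −0.07 and 0.05 in 62A, 62B and 62C did not pass.

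MGA2 (YIR033W) encodes a membrane-bound activator of OLE1 that is released when membranes lack unsaturated fatty acids. Its level was 7.67 and 7.60 in 62B, against 7.11 in 62A, 7.03 in 62C, and 7.02 and 7.06 in the reference. MGA2 rose 1.52-fold in 62B (0.60 ± 0.05, limma adjusted p = 2.58e-05), with changes of 0.08 and −0.01 in 62A and 62C, and the F test among the evolved strains passed (adjusted p = 0.000131). OLE1 itself had a change of 0.08 ± 0.05 in 62B that did not pass with the values as deposited. After quantile normalization it was 0.16 and passed. SPT23 (YKL020C), the related activator, had changes of −0.08, 0.08 and −0.08, none past the threshold. UME6, a repressor of meiotic genes that also acts on INO1, rose in 62B (0.44 ± 0.05, adjusted p = 0.000218) and had changes of 0.07 and −0.04 in 62A and 62C. SCS2, whose membrane protein anchors Opi1, fell in 62B (−0.24), and IRE1, the sensor of the unfolded protein response, fell in 62C (−0.21).

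The wider pathway was read from 9 lists with 92 genes, all measured, of which 83 are not among the 9 genes above. With the strains as samples, 5 of these 83 genes rose and 0 fell, where 1.96% of all genes rose and 2.79% fell. They were ETR1, FAA1, YPC1, YDC1 and CSH1. Tested alone, 62A had 9 of the 83 genes higher and 7 lower, 62B had 31 higher and 14 lower, and 62C had 12 higher and 18 lower. Over all genes 10.0% rose and 14.9% fell in 62A, 20.1% and 21.3% in 62B, and 14.7% and 23.3% in 62C. Medians over all 92 genes were −0.05, 0.02 and −0.04 in 62A, 62B and 62C, against −0.04, −0.01 and −0.04 over all genes tested.

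**Figure D3:**
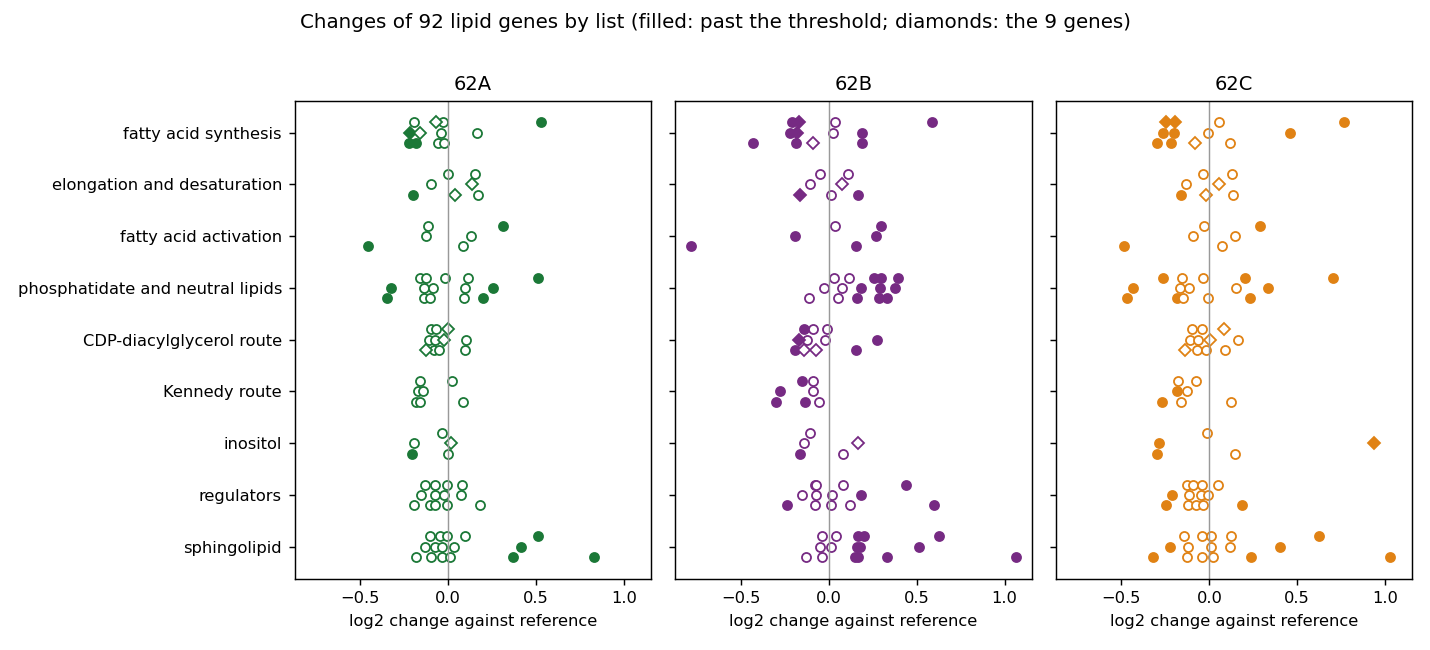
Log2 change against the reference of 92 lipid genes in 9 lists, 1 panel per evolved strain; each point is a gene, filled where it passed the adjusted threshold of 0.05, and diamonds mark the 9 genes described first. INO1 in 62C (0.94) and the ceramidase gene YPC1 in the sphingolipid list (0.83, 1.06 and 1.03) lie farthest to the right.

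Among the 9 other genes of fatty acid synthesis, most act in the separate mitochondrial pathway that makes the precursor of lipoic acid, and they moved in both directions. ETR1 (YBR026C), the enoyl reductase of that pathway, was at 7.56 in 62A, 7.62 and 7.61 in 62B and 7.79 in 62C, against 7.11 and 6.95 in the reference. It rose 1.54-fold with the strains as samples (0.63 ± 0.09, limma adjusted p = 0.0390). With strain as a random block, which estimates the correlation between arrays of a strain, it did not pass (adjusted p = 0.0826 with an estimated correlation). MCT1, the malonyl transferase, fell in each strain tested alone (−0.22, −0.43 and −0.30 in 62A, 62B and 62C), as did CEM1, the condensing enzyme (−0.19, −0.19 and −0.26). ACP1, the acyl carrier protein, rose in 62C (0.46 ± 0.07, adjusted p = 0.000736). In 62B HTD2, the dehydratase, fell (−0.22) and PPT2, which activates the carrier protein, rose (0.19). Without either 62B array the calls of HTD2, PPT2 and CEM1 in 62B and of MCT1 and CEM1 in 62A were lost. That of CEM1 in 62A was also lost with the replicate number as a block and without the second reference array. In all, 1, 3 and 2 of these 9 genes rose and 2, 4 and 4 fell in 62A, 62B and 62C. Over all genes the shares were 10.0%, 20.1% and 14.7% higher and 14.9%, 21.3% and 23.3% lower.

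Of the elongation genes other than ELO1, 1 passed in each strain, with changes no larger than about 0.20. Over all genes 14.9% fell in 62A, 20.1% rose in 62B and 23.3% fell in 62C. ELO2, which elongates the long chains of sphingolipids, fell in 62A (−0.20 ± 0.06, limma adjusted p = 0.0313) and 62C (−0.16 ± 0.06, adjusted p = 0.0494). IFA38, the ketoreductase of that elongation cycle, rose in 62B (0.17 ± 0.05, adjusted p = 0.0170). All 3 calls were lost without either 62B array, and that of ELO2 in 62C also after median centring, with dim genes left out and without the first reference array.

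The acyl-CoA synthetases, which activate free fatty acids, included a pair of opposite changes. FAA1 (YOR317W) was at 10.42 in 62A, 10.41 on both 62B arrays and 10.40 in 62C, against 10.08 and 10.14 in the reference, and rose 1.23-fold with the strains as samples (0.30 ± 0.05, limma adjusted p = 0.0419). FAA1 did not pass with strain as a random block (adjusted p = 0.0961 with an estimated correlation) or without 62C (adjusted p = 0.0686). FAA4 (YMR246W) was at 8.45 in 62A, 8.14 and 8.11 in 62B and 8.42 in 62C, against 8.86 and 8.96. It fell in each strain alone, to 0.728 of the reference level in 62A, 0.582 in 62B and 0.715 in 62C (limma adjusted p = 0.00117, 6.41e-06 and 0.000390), and the F test among these strains passed (adjusted p = 0.00561). With the strains as samples FAA4 did not pass (adjusted p = 0.0528). FAT1 rose (0.27 ± 0.06, adjusted p = 0.00454) and FAA3 fell (−0.19 ± 0.06, adjusted p = 0.0374) in 62B.

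Of 15 genes of phosphatidate and neutral lipid synthesis, 9 rose in 62B and 0 fell (median 0.18), where 20.1% of all genes rose and 21.3% fell. The counts were 3 higher and 2 lower in 62A (median −0.08), and 4 higher and 4 lower in 62C (median −0.12), against shares over all genes of 10.0% and 14.9% in 62A and 14.7% and 23.3% in 62C. ARE2 (YNR019W), the main sterol acyltransferase, was at 9.47 and 9.41 in 62B, against 9.11 and 8.99 in the reference, 8.70 in 62A and 8.58 in 62C. It rose in 62B (0.39 ± 0.06, limma adjusted p = 0.000537) and fell in 62A (−0.35 ± 0.07, adjusted p = 0.00620) and 62C (−0.47 ± 0.07, adjusted p = 0.000699), and the F test among these strains gave adjusted p = 2.73e-05. ARE1 (YCR048W), its paralog, fell in 62A (−0.33 ± 0.06, adjusted p = 0.00364) and 62C (−0.44 ± 0.06, adjusted p = 0.000380), and its change of 0.12 ± 0.05 in 62B did not pass. AYR1, which reduces acyl-dihydroxyacetone phosphate on the way to phosphatidate, rose in all 3 strains tested alone (0.51, 0.25 and 0.70), as did DGA1, which makes triacylglycerol (0.26, 0.30 and 0.23). GPT2, an acyltransferase at the start of the route, rose in 62B (0.29) and 62C (0.33), and NEM1, which activates the phosphatidate phosphatase, rose in 62B (0.38). Among the evolved strains both ARE genes and the 3' excess of the control genes were highest in 62B and lowest in 62C, while for that excess 62A lay between the reference arrays. By the further ACT1 pair 62A lay above both reference arrays. The part of RNA quality in these results was not tested.

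**Figure D4:**
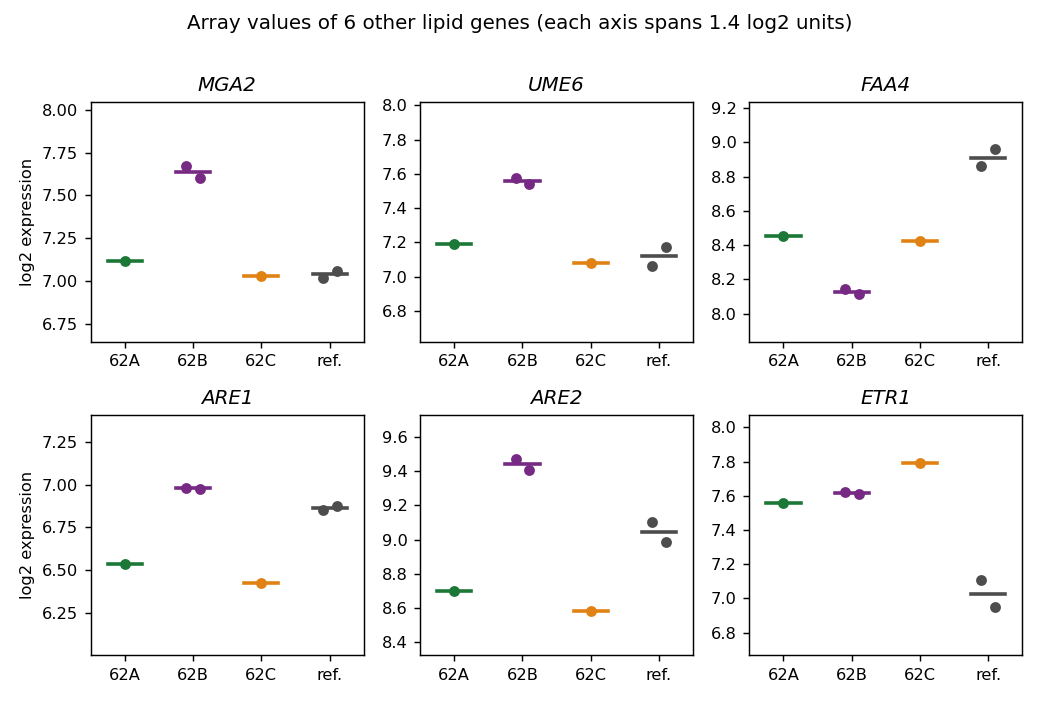
Log2 expression of MGA2, UME6, FAA4, ARE1, ARE2 and ETR1 on every array, with 1 point per array and a line at the strain mean (ref. is the reference). MGA2, UME6 and ARE2 are highest on both 62B arrays, FAA4 is lowest there, and ETR1 is above both reference arrays on all 4 evolved arrays.

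In the route from CDP-diacylglycerol, the branch that holds CHO1, CHO2 and OPI3, 0 of 11 genes passed in 62A or 62C by limma, and 2 rose and 3 fell in 62B. Over all genes 20.1% rose and 21.3% fell in 62B, 10.0% and 14.9% in 62A, and 14.7% and 23.3% in 62C. PIS1, the phosphatidylinositol synthase that uses the product of the INO1 route, rose in 62B (0.27 ± 0.05, adjusted p = 0.00267). CDS1, which makes CDP-diacylglycerol, fell in 62B (−0.19 ± 0.05, adjusted p = 0.0163), and TAM41, its mitochondrial counterpart, rose there (0.16 ± 0.05, adjusted p = 0.0258). The Kennedy route builds phosphatidylcholine and phosphatidylethanolamine from free choline and ethanolamine. In it 4 of 7 genes fell in 62B, 2 in 62C and 0 in 62A, and 0 rose, with medians from −0.16 to −0.13. The shares of all genes that fell were 21.3% in 62B, 23.3% in 62C and 14.9% in 62A. The choline kinase CKI1 and ECT1 of the ethanolamine branch fell in 62B (−0.28 ± 0.05 and −0.30 ± 0.06, limma adjusted p = 0.00188 and 0.00253). EKI1, the ethanolamine kinase, fell in 62B and 62C (−0.13 and −0.18), and HNM1, the choline transporter, fell in 62C (−0.27 ± 0.06, adjusted p = 0.00955).

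The other 4 inositol genes held 0 rises and 2 falls in 62C, where 14.7% of all genes rose and 23.3% fell. INM1, an inositol monophosphatase, and ITR2, a minor inositol transporter, fell there (−0.30 ± 0.07 and −0.29 ± 0.07, limma adjusted p = 0.0121 and 0.00776). ITR2 also fell in 62A (−0.20, adjusted p = 0.0499), with a change of 0.08 in 62B. INM2, the paralog of INM1, had changes of 0.00, −0.10 and 0.15 in 62A, 62B and 62C that did not pass, and it was lower in 62B than in 62C (−0.25 ± 0.06, adjusted p = 0.00831). ITR1, the main transporter, fell in 62B (−0.16 ± 0.05, adjusted p = 0.0208).

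Of the 5 genes that passed with the strains as samples, 3 belong to the sphingolipid list. YPC1 (YBR183W) and YDC1 (YPL087W), paralogous ceramidases that break ceramide down, rose with the strains as samples (0.97 ± 0.09, or 1.96-fold, and 0.59 ± 0.06, limma adjusted p = 0.0329 and 0.0340). YPC1 was at 8.59 in 62A, 8.82 and 8.83 in 62B and 8.79 in 62C, against 7.83 and 7.70 in the reference. CSH1, of mannosylated sphingolipid synthesis, rose 1.36-fold (0.44 ± 0.06, adjusted p = 0.0364). The evolved and reference arrays did not overlap for YPC1, YDC1 or CSH1, nor for ETR1 and FAA1. How many of all genes separate in this way was not counted. Of the 16 genes in this list, 10 rose in 62B, 4 in 62A and 4 in 62C, where 20.1%, 10.0% and 14.7% of all genes rose. The shares of all genes that fell were 21.3%, 14.9% and 23.3% in these strains. Falls were seen in 62C only by this test, for AUR1 of inositol phosphorylceramide synthesis (−0.32 ± 0.06, adjusted p = 0.00272) and the ceramide synthase LAC1 (−0.22 ± 0.06, adjusted p = 0.0161). AUR1 rose in 62B (0.16 ± 0.05, adjusted p = 0.0256), and it differed among the evolved strains by the F test (adjusted p = 0.000913). The calls with the strains as samples for ETR1, FAA1, YPC1, YDC1 and CSH1 were lost without 62A and without either reference array, where 6 and 0 of all genes passed, and all but that of YPC1 were lost with strain as a random block (YDC1 adjusted p = 0.0611 and CSH1 adjusted p = 0.0785 with an estimated correlation). Tested in each strain alone, all 5 genes passed.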

How the data were processed

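Per the submitters' processing notes, the authors used affy and RMA, and the deposited values are log2 expression values. The sources used here name no software version, genome build or set of arrays normalized together. The value table has 10928 probe sets. Of these, 5498 matched 1 S. cerevisiae gene each through the platform annotation and the RefSeq gene table, giving 5449 genes. Where a gene had several (47 genes), that of the highest mean was taken. No value was rescaled, no gene was filtered out, and 0 columns were unused.

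Comparisons were tested in R 4.3.3 with limma 3.58.1 (lmFit, eBayes, moderated F), with Benjamini-Hochberg adjustment over all genes within each comparison and a threshold of 0.05. The comparison with strains as samples averaged the 62B arrays first and had 3 residual degrees of freedom. The fit with 1 term per strain had 2, and in it the 1 array of 62A and that of 62C are assumed to vary like the pairs. Errors are SE of these fits unless named as SD. The fits were also run on simulated arrays with planted changes. Those arrays had independent noise and no spread between the evolved strains, so that run does not measure the error of the calls here.

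The 9 genes and the 9 lists were chosen with earlier results of these data known. The genes named are the 9, INO2, INO4, OPI1, MGA2 and SPT23, and every list gene past the threshold with strains as samples. Added to these are, per list and strain, up to 2 genes in each direction with the largest change among those past the threshold. The nearest neighbours are 3 per gene. INM2, the remaining gene of the inositol list, was named outside this rule and was not followed in the alternatives. Replicate numbers were not found to pair the samples. Alternatives changed the normalization, the filter on dim genes, the probe set rule, the variance trend, the arrays used, the replicate number as a block, and the treatment of the 62B arrays or strain. No promoter or protein sequence was used here.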

Additional observations from a re-analysis of the deposited data

Results flagged for a closer look

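INO1 and ELO1 are singled out because their changes against the reference differ among the evolved strains by the moderated F test in limma (6 arrays). For INO1 the adjusted p was 0.000907, with changes of 0.02 in 62A, 0.17 in 62B and 0.94 in 62C. For ELO1 it was 0.0123, with changes of 0.14, −0.16 and −0.02. The difference in INO1 rests on the single 62C array, and that in ELO1 mainly on the gap between the single 62A array and the 62B pair. No group has enough arrays to test for a stray one.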

How the results depend on the processing

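Of 84 reported changes past the threshold, 49 kept their direction and call in every alternative run and 0 turned direction. Of 47 not past it, 12 turned direction in some alternative. Calls lost without either 62B array included those of ITR2 in 62A, TAM41, EKI1, ITR1 and AUR1 in 62B, and EKI1 and IRE1 in 62C. In 62B those of AYR1, FAA3, CDS1 and SCS2 were lost without the second 62B array, and that of FAT1 without the first. Some of these were lost in other alternatives too. For the 9 genes with the strains as samples, the count past the threshold was 0, with 0 in each run that left out an array, and 2 (FAS1 and FAS2, both lower) with the 62B arrays as separate samples. In 62A it was 1, against 2 after quantile normalization and 2 with an intensity trend, and 0 to 2 when an array was left out. It was 4 in 62B (0 to 5 without an array, the 0 being without either 62B array; 6 after quantile normalization, of which INO1 and OLE1 rose) and 3 in 62C (2 to 4). It was 1 for 62B against 62A (0 to 1), 2 for 62B against 62C (4 after median centring, 1 to 4 without an array) and 2 among the evolved strains (1 to 3). With the replicate number as a block (replicate block), CHO2 also passed in 62B, making 5, and the other counts of the 9 genes stayed the same. The numbers were not found to pair the samples (r = −0.06 between same-numbered deviations).

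Changes near 0 that turned direction, none past the threshold, were the following. After quantile normalization, with strains as samples, ELO1 was at 0.0022, OPI3 at −0.0019 and CHO1 at 0.0102; in 62A CHO1 was at 0.051 and OPI1 at 0.0084, and in 62C MGA2 was at 0.0226. After median centring OPI1 was at 0.0133 in 62A, and ELO1 was at 0.0041 and MGA2 at 0.0168 in 62C. With the replicate block OPI3 was at −0.0309 with strains as samples and at −0.0104 in 62A, where INO1 was at −0.0156 and OPI1 at 0.0379. OPI3 was at −0.0147 with the 62B arrays separate and at −2e-04 with strain as a random block. Over runs without an array, with strains as samples, ELO1 ranged from −0.0919 to 0.009 and OPI3 from −0.0352 to 0.0197. In 62A INO1 ranged from −0.1199 to 0.1569, OPI3 from −0.014 to 0.0168 and OPI1 from −0.0644 to 0.0554. In 62C ELO1 ranged from −0.0453 to 0.0037, CHO1 from −0.0124 to 0.0149, OPI1 from −0.0097 to 0.1101, MGA2 from −0.0294 to 0.0131 and UME6 from −0.0948 to 0.0139.

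Counts over all genes moved too. With strains as samples 259 passed, against 658 with the 62B arrays separate, 21 with strain as a random block, 6 without 62A, 99 without 62C and 0 without either reference array. For 62C against 62A 132 passed, against 221 after median centring, 272 with the replicate block, 19 without either 62B array and 432 without either reference array. The causes were not tested. The number of arrays limits the precision.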
